A study of Drosophila melanogaster with 4 samples.

Results

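Cytosolic ribosomal protein genes were followed across 4 RNA-seq libraries of dissected fly thoraces, with the question of how the genes that build the cytosolic ribosome, and their duplicated copies, sat in muscle tissue with and without knockdown of the transcription factor MEF2. The genes were taken by name, as every gene of the table whose symbol begins with RpL or RpS followed by a digit or P, plus sta, which left out kinases and the mitochondrial (mRp) genes. This gave 87 of 13012 genes, of which 50 carry a large subunit name and 37, sta included, belong to the small subunit. Of the 87, 81 are referred to here as main genes, among them 4 that form the pairs RpS14a with RpS14b and RpL34a with RpL34b. A further 4 are second copies of a main gene (RpS5b, RpS10a, RpS15Ab and RpS19b), and 2 (RpL24-like and RpLP0-like) are relatives of a ribosomal protein. Values for the copies or relatives RpS28a, RpS28-like, RpL10Aa, RpL22-like, RpL37b and RpL7-like were not analysed here.

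The ribosome is built from ribosomal RNA and one copy of nearly every ribosomal protein, and the genes for these proteins are among the most abundantly transcribed and most evenly regulated of any cell. In Drosophila, loss of 1 copy of many of these genes gives the Minute phenotype of slow growth and short bristles. Some ribosomal proteins are encoded by a pair of genes, of which one is used broadly and the other mainly in the germline. RpS5b and RpS19b are such germline-enriched copies in flies. The yeast relatives of RpL24-like and RpLP0-like act in assembly of the large subunit rather than in the finished ribosome.

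The flies carried Act88FGS, a GeneSwitch driver under the Act88F (flight muscle actin) promoter, crossed either to w1118 or to UAS-MEF2 RNAi. The offspring are called control (w1118) and knockdown (MEF2 RNAi) flies, and a pair of values from one genotype is given with RU486 first. GeneSwitch is a GAL4 fusion that acts only in flies fed RU486, so ethanol-fed flies (-RU486) of the same genotype are the uninduced state, and RU486-fed knockdown flies are the induced knockdown. All flies were females kept on the high calorie diet and sampled at 10 days, and each library was made from total RNA of 8 pooled thoraces with a stranded kit. A thorax holds flight muscle together with other tissue, and in a bulk sample fewer cells of a type and less RNA per cell cannot be told apart. There is 1 library per condition, so every difference rests on a pair of single libraries, without replicates or p-values.

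The deposited values are log2 values centred gene by gene, meaning that the 4 values of each gene sum to 0 and a value tells how far a library lies from that gene's own mean. They hold no expression level, so a copy cannot be compared in abundance with its partner, muscle markers could not be checked for presence, and no depth can be given for any value. The whole table was shifted between libraries, with an all-gene median of -0.18 in induced and 0.19 in uninduced knockdown flies, and of 0.17 and -0.18 in control flies with and without RU486. Subtracting these medians gives what is called the all-gene scale. Mef2, the RNAi target, had -0.38 with and 0.25 without RU486 in the knockdown genotype, against 0.22 and -0.098 in the control genotype, folds of 0.647 and 1.25. These folds include the shift of the whole table. As log2 differences, +RU486 minus -RU486, Mef2 had -0.63 in knockdown and 0.32 in control flies, where the medians of all genes were -0.38 and 0.36.

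The main ribosomal protein genes lay together as a block. Their values lay between -0.24 and -0.15 in knockdown flies with RU486, between 0.18 and 0.31 in the uninduced flies of that genotype, between 0.13 and 0.34 in control flies with RU486, and between -0.37 and -0.24 in control flies without it. These 4 ranges have the same sign for every one of the 81 genes, and the medians were -0.20, 0.27, 0.21 and -0.28. Of all 13012 genes, 11530 were below 0, 10919 above, 11887 above and 12126 below in the same libraries, in that order. Much of this pattern was shared by the whole table. Relative to the all-gene medians, the main genes' medians were -0.020 in the induced and 0.086 in the uninduced knockdown, and 0.043 and -0.099 in control flies, and against genes with information the first became 0.0061, a change of sign. The scaled median absolute deviation, a measure of spread in which the outermost genes have little weight, was 0.013, 0.011, 0.024 and 0.020 over the main genes, compared with 0.13, 0.14, 0.12 and 0.12 over all genes of the table.

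**Figure D1:**
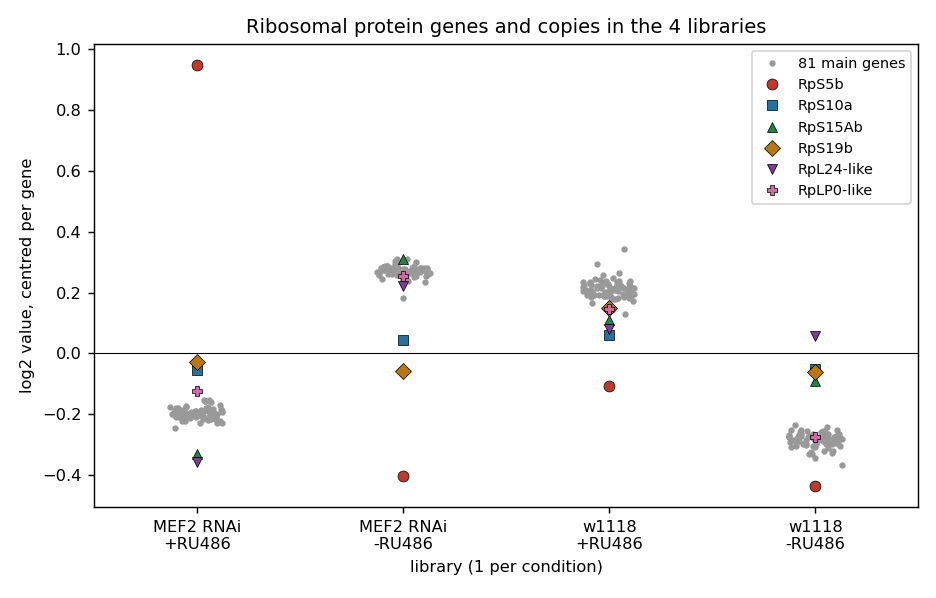
Centred log2 value (vertical axis) of each member in each of the 4 libraries (horizontal axis, 1 library per condition), with the 81 main genes as gray points and the 4 second copies and 2 assembly relatives as colored symbols. The gray points form a narrow band in each library, while RpS5b stands at 0.95 in knockdown flies with RU486, RpS10a lies nearer to 0 than the band in every library, and RpS19b does so in all but the RU486-fed control, where its 0.15 is inside the band.

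With RU486, the main genes had a median log2 difference (+RU486 minus -RU486) of -0.47 in knockdown flies, with an interquartile range of -0.48 to -0.46, and of 0.49 in control flies, with an interquartile range of 0.47 to 0.52. Over all genes the medians were -0.38 and 0.36. On the all-gene scale the main genes kept their direction as a group, at -0.11 in knockdown flies and 0.14 in control flies, with 80 of 81 genes still below 0 in knockdown flies and sta on the other side at 0.026. The small and large subunit genes had nearly equal medians, -0.47 for the 33 small subunit genes and -0.47 for the 48 large subunit genes in knockdown flies, and 0.49 and 0.50 in control flies. A lower value with RU486 in the knockdown genotype together with a higher one in the control genotype was found in 85 of 87 members, RpS5b and RpS19b being the exceptions, and in 83.7% of all genes. The highest of the 4 libraries was the uninduced knockdown for 80 members (49.3% of all genes), the RU486-fed control for 6 (44.6%), the induced knockdown for 1, RpS5b (3.97%), and the ethanol-fed control for 0 (2.11%). The lowest was the ethanol-fed control for 84 members (47.4% of all genes) and the induced knockdown for 3, RpS15Ab, RpL24-like and RpS10a (48.2%), and neither of the other two for any (2.14% and 2.24%).

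Few members passed the fold thresholds used for these libraries in the study, that is 0.65 or less for lower and 1.5 or more for higher. The study used them in knockdown flies, with the further condition of no such change in controls. Here the thresholds were used alone, in each comparison. In knockdown flies, 1 of 87 members was lower by this measure (RpS15Ab), against 6.99% of all genes, and 1 was higher (RpS5b), against 0.807%. In control flies none was lower, against 0.0384% of all genes, and 5 were higher (sta, RpL22, RpL4, RpL18 and RpS10b), against 6.54%. The latter share, 5.75% of the members, is close to the background. After the all-gene medians were subtracted, neither these 5 nor RpS15Ab passed, where 1.25% and 0.438% of genes did in the corresponding directions, and again no member was lower in control flies (0.192%), while RpS5b still passed (2.14%). With stricter thresholds of 0.5 and 2 on the deposited scale, RpS5b was the single member past either, higher in the knockdown genotype (0.361% of genes), with 0 lower there (0.4%) and 0 in control flies in either direction (0.0154% lower and 1.03% higher).

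**Figure D2:**
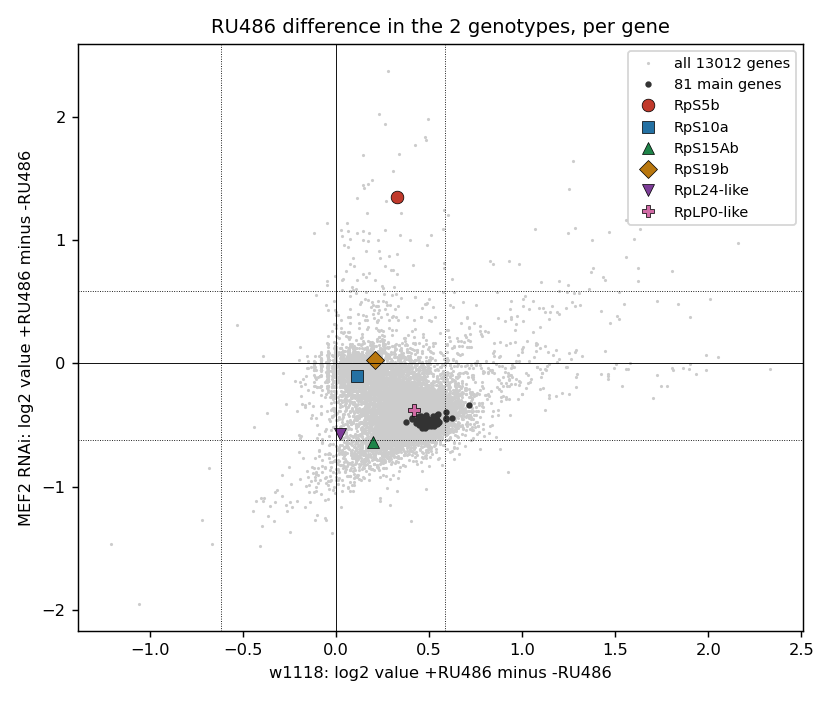
Log2 value +RU486 minus -RU486 per gene in control flies (horizontal axis) and in knockdown flies (vertical axis) for all 13012 genes (light gray), the 81 main ribosomal protein genes (black) and the copies (symbols), with dotted lines at fold changes of 0.65 and 1.5. The main genes form one tight cloud around 0.49 and -0.47, and RpS5b lies far above it at 0.33 and 1.35.

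Within the block, the named extremes differed from the median by small amounts. RpL31, RpLP1 and RpS2 had the lowest RU486 differences of the unpaired genes in knockdown flies, at -0.52, -0.52 and -0.51. RpLP1 is one of the acidic proteins of the ribosomal stalk, and RpS2 sits near the entry of the mRNA channel. RpLP1 had values of -0.21 and 0.31 in induced and uninduced knockdown flies and of 0.18 and -0.28 in control flies, which is the common pattern at slightly wider excursion in the knockdown genotype.

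At the other end of the unpaired genes in knockdown flies were sta, RpL19 and RpL37A, at -0.34, -0.42 and -0.42. The gene sta encodes the small subunit protein also known as the laminin receptor homolog. Its 4 values were -0.16 and 0.18 in induced and uninduced knockdown flies, and 0.34 and -0.37 in control flies. It was thus the mildest of the main genes in the knockdown genotype and the widest in control flies, where its difference of 0.71 (fold change 1.64) was the highest of all 87 members. RpL22, a large subunit protein with a long N-terminal extension in flies, came next with 0.62 (fold change 1.54). Its values were -0.20 and 0.24 in induced and uninduced knockdown flies and 0.29 and -0.33 in control flies, and it overlaps another gene on its strand. RpL4 and RpL18 followed with 0.59 each.

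RpL41, RpL38 and RpS3A had the lowest control differences of the main genes, at 0.38, 0.41 and 0.41. RpL41, the smallest ribosomal protein, had values of -0.19 and 0.28 in induced and uninduced knockdown flies and 0.14 and -0.24 in control flies. RpS3A, the only member on chromosome 4, had -0.15 and 0.30, and 0.13 and -0.28. In both genes the control libraries lay closer together than in most of the block, while the knockdown difference was ordinary, at -0.47 and -0.45.

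Genes with special roles stood inside the block. RpL32, widely used in flies as a reference gene for qRT-PCR under its older name rp49, had values of -0.20 and 0.27 in induced and uninduced knockdown flies and 0.22 and -0.30 in control flies. Its RU486 difference was -0.47 in knockdown flies and 0.52 in control flies. RpS6, the substrate of S6 kinase, had -0.47 and 0.49. RpL5 and RpL11, which travel to the ribosome together with 5S RNA, had -0.46 and -0.49 in knockdown flies and 0.47 and 0.51 in control flies. RpS27A and RpL40, which are made as fusions to ubiquitin, had -0.45 and -0.45 in knockdown flies and 0.44 and 0.48 in control flies. None of these was outside the range of the other main genes. These genes were chosen for their roles after values had been seen.

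The 2 genotypes were also compared within each feeding state, which uses the same 4 libraries. Without RU486, the main genes were higher in knockdown than in control flies, with a median log2 difference of 0.55 and a range of 0.49 to 0.61, and all 81 stayed above 0 on the all-gene scale, where the median was 0.18. The 1.5-fold threshold was passed by 9 of 87 members, all of them main genes and led by RpL18 at 0.61, against 6% of all genes, and by none on the all-gene scale, where 0.246% of genes did. No member was lower past 0.65 on either scale (0.00769% and 0.123% of genes). With RU486, the main genes were lower in knockdown flies, with a median of -0.41 and a range of -0.50 to -0.28. Relative to all genes this median was -0.064, and 5 main genes (RpS20, RpS29, RpS3A, RpL37A and RpL41) had the opposite sign. Against the median of genes with information, meaning genes with values of their own that leave the vicinity of 0, it was -0.014, with only 53 of 81 main genes below 0. RpS5b, with 1.06, was the only member higher by 1.5-fold in that comparison, on the deposited (0.599% of genes) and the all-gene scale (1.34%), and no member was lower past 0.65 on either (3.87% and 0.423%).

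The 87 members are spread over the genome. In the BDGP6 annotation, which may not be the build the study used, 15 lie on chromosome X, 17 on 2L, 19 on 2R, 14 on 3L, 21 on 3R and 1 on chromosome 4. The median RU486 difference of the main genes was between -0.48 and -0.46 in knockdown flies on every arm with more than 1 main gene, and between 0.48 and 0.51 in control flies. Genes for snoRNAs, small RNAs that guide modification of ribosomal RNA, lie within 29 main genes. These 29 had the same median in knockdown flies as the 52 others, -0.47. In control flies the medians were 0.50 and 0.49. Across the 81 main genes, the control difference was larger in genes with longer exons (Pearson's r with log2 exon length 0.35, Spearman's rho 0.41, and 0.41 and 0.43 over 79 genes without the 2 farthest lengths), and in knockdown flies r was 0.11 and rho 0.072. All points share the same 4 libraries, so these correlations are descriptions of single differences. The 27 longest genes had a median of 0.52 in control flies, compared with 0.48 in the 27 shortest.

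The values of the second copies departed from the block, each in its own way. For RpS19b and RpS10a these values were shared with other genes, so they may not be measurements of their own. RpS5b (chromosome 3R, 14900432 to 14901563, reverse strand) lay farthest from the block. No other annotated gene overlaps it, and it holds no snoRNA gene.

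RpS5b had 0.95 and -0.40 in induced and uninduced knockdown flies and -0.11 and -0.44 in control flies. The induced knockdown library was thus the only one in which RpS5b lay above its own mean, and the other 3 libraries lay below it. The log2 difference of RpS5b upon RU486 was 1.35 in knockdown flies (fold change 2.55) and 0.33 in control flies (fold change 1.25), and only 16 of the 13012 genes had a larger difference in knockdown flies. Against the all-gene medians these were 1.71 and -0.021, so the control value changed sign. RpS5b was also the only one of the 87 members with its highest value in the induced knockdown library, where 3.97% of all genes had theirs.

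For the other copies, the comparison is with the partner gene in the same library. Any shift common to both genes cancels in such a difference. Where a copy stays near 0 and its partner follows the shift of the whole table, that shift remains in the difference.

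**Figure D3:**
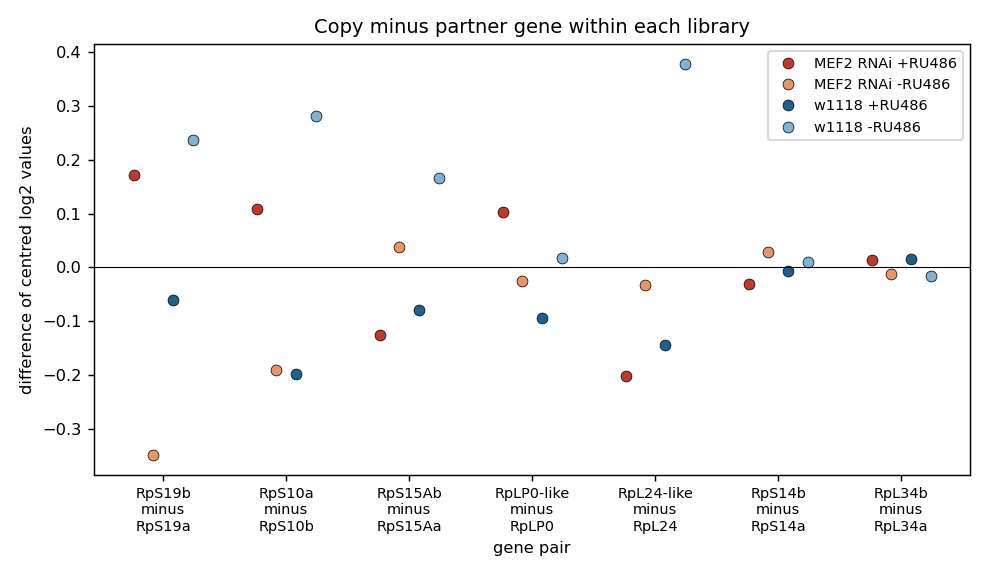
Difference of centred log2 values between a copy and its partner gene (vertical axis) for 7 gene pairs (horizontal axis), with 1 point per library. RpS19b minus RpS19a runs from -0.35 to 0.24, whereas the points of RpS14b minus RpS14a and of RpL34b minus RpL34a stay within 0.032 of 0.

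RpS19b (chromosome 3R, 23932729 to 23933530, reverse strand) is the germline-enriched copy of RpS19a (chromosome X, 16637894 to 16639249, forward strand). Its values were -0.027 and -0.059 in induced and uninduced knockdown flies and 0.15 and -0.061 in control flies. The RU486-fed control library alone lay apart from the rest. RpS19b minus RpS19a was 0.17 and -0.35 in induced and uninduced knockdown flies, and -0.061 and 0.24 in control flies. To 10 decimals, all 4 values of RpS19b were identical to those of 3 other genes. Such shared sets of values were found for 1963 genes of the whole table.

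RpS10a (chromosome 3R, 27652760 to 27653363, forward strand) had values of -0.053 and 0.045 in induced and uninduced knockdown flies and 0.059 and -0.051 in control flies. None was farther than 0.1 from 0, and all 4 were shared with 7 other genes. The values follow the direction of the main block at a small part of its size. RpS10b, its main partner (chromosome X, 19598031 to 19599806, forward strand), had -0.16 and 0.24, and 0.26 and -0.33. RpS10a minus RpS10b, at 0.11 and -0.19 in induced and uninduced knockdown flies and -0.20 and 0.28 in control flies, therefore mostly mirrors the excursion of RpS10b.

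RpS15Ab, on chromosome arm 2R, is the second copy of RpS15Aa (chromosome X, 13335637 to 13337705, reverse strand). Its values were -0.33 and 0.31 in induced and uninduced knockdown flies and 0.11 and -0.089 in control flies. RpS15Aa had -0.20 and 0.27, and 0.19 and -0.25. RpS15Ab thus shared the order of libraries within each genotype with its partner but had a wider excursion in knockdown flies and a narrower one in control flies. Its RU486 difference of -0.64 in knockdown flies (fold change 0.642) was the lowest of the 87 members and became -0.28 on the all-gene scale. Relative to RpS15Aa it was -0.16 in knockdown flies and -0.24 in control flies, so the copy was lower against its partner with RU486 in both genotypes.

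Over these 3 copies, the median difference from the partner in the RU486 difference was 0.30 in knockdown flies and -0.30 in control flies. In knockdown flies RpS19b and RpS10a contributed 0.52 and 0.30 and RpS15Ab -0.16, and in control flies they contributed -0.30, -0.48 and -0.24. The positive values in knockdown flies belong to the copies whose 4 values are shared with other genes, and without those copies only the RpS15Ab value of -0.16 is left, with the opposite sign.

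The pairs in which neither gene was classed here as a second copy had nearly equal values. This closeness is not particular to the pairs. The main genes as a whole had scaled median absolute deviations of 0.011 to 0.024 per library. RpS14a (chromosome X, 7933742 to 7934677) and RpS14b (chromosome X, 7934898 to 7935792) lie in tandem on the forward strand with 220 bases between them. They had values of -0.19 and -0.22 in knockdown flies with RU486, 0.25 and 0.28 without, 0.21 and 0.21 in control flies with RU486, and -0.28 and -0.27 without. Their coding sequences are nearly identical, and how reads that fit both were counted is not given in the sources used here, so the values of the pair may not be separate measurements. RpL34a (chromosome 3R, 26058420 to 26059267, reverse strand) and RpL34b (chromosome 3R, 9400237 to 9401226, reverse strand) lie far apart and also agreed within 0.016 in every library. How reads that fit both were counted is not given for this pair either.

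The assembly relatives differed from each other. RpLP0-like had values of -0.12 and 0.25 in induced and uninduced knockdown flies and 0.14 and -0.27 in control flies. The stalk base protein gene RpLP0 had -0.23 and 0.28, and 0.24 and -0.29. RpLP0-like minus RpLP0 was 0.10 and -0.025 in knockdown flies and -0.094 and 0.017 in control flies. In the induced knockdown RpLP0-like lay above the range of the main genes, -0.24 to -0.15. RpL24-like (chromosome 3R, 11430740 to 11431582, reverse strand) had -0.36 and 0.22, and 0.079 and 0.056, which made it the lowest of the 87 members in the induced knockdown and the only one above 0 in ethanol-fed controls. Its control libraries did not separate, with a RU486 difference of 0.023, while RpL24, which helps bridge the subunits, had 0.55 there. In knockdown flies RpL24-like had -0.58 and RpL24 -0.41. Against the all-gene medians RpL24-like was lower with RU486 in both genotypes.

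RpS5b was read beside markers of the female germline, since it is a germline-enriched gene and a thorax should hold none of that tissue. Of a list of 28 such genes in the table, 20 had their highest value in the induced knockdown library, the library in which RpS5b was highest, against 3.97% of all genes. The RU486 difference in knockdown flies was 1.5-fold or more for 12 of the 28, against 0.807% of all genes, and for 20 of the 28 on the all-gene scale, against 2.14%. A larger difference than that of RpS5b was found in 8, among them osk (1.99) and nos (1.46), which pattern the egg, and dhd (2.37), a germline thioredoxin. Other list members, such as gus, stau, BicD and egl, which many tissues express, followed the main block instead, and grk, the oocyte's signalling ligand, was lowest in the induced knockdown at -0.46. In knockdown flies with RU486 the germline list ranged from -0.46 to 1.70, in the uninduced flies from -0.68 to 0.46, and in control flies from -0.37 to 0.82 and from -0.65 to -0.050. Which of these genes are at zero cannot be read from centred values. The part of germline RNA in the RpS5b result was not tested. None of 6 eggshell and vitelline membrane genes (Cp36, Cp38, Vm26Aa, Vm32E, dec-1 and yellow-g) was highest in the induced knockdown library, against 3.97% of all genes. Their values there lay between -0.16 and 0.052, and Vm32E had none farther than 0.1 from 0 in any library. Whether these 6 genes are at zero cannot be read from centred values either. All 6 were highest in control flies with RU486, as were RpS19b and 44.6% of all genes. Of 8 flight muscle genes none was highest in the induced knockdown, again against 3.97%. All 5 fat body genes were highest in the uninduced knockdown, as were 49.3% of all genes.

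**Figure D4:**
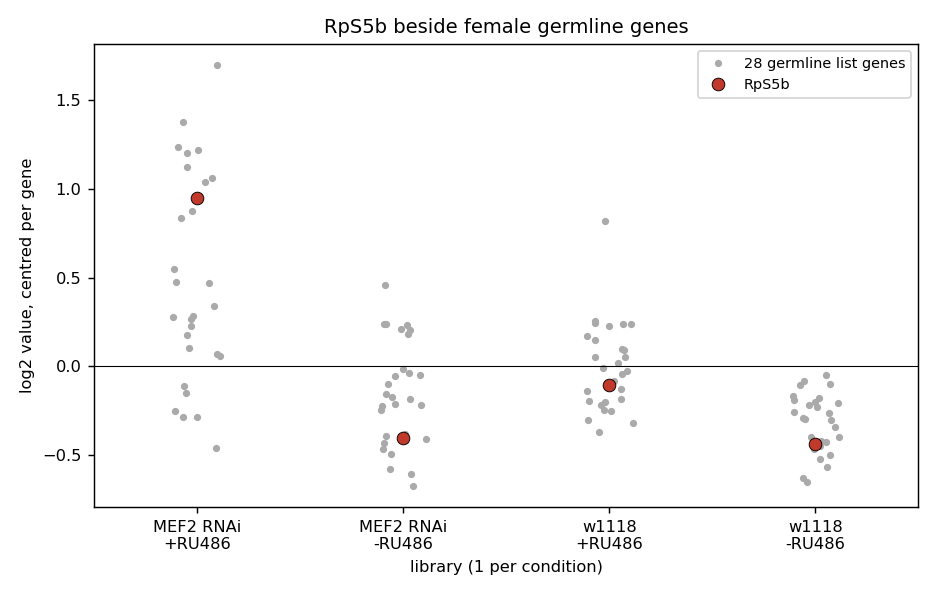
Centred log2 value (vertical axis) of RpS5b (red circle) and 28 genes of a female germline list (gray points) in each of the 4 libraries (horizontal axis, 1 library per condition). RpS5b lies among the upper germline genes in knockdown flies with RU486, at 0.95, and among the lower ones in uninduced knockdown flies, at -0.40.

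Translation factor genes had medians close to those of the ribosomal protein genes. Genes for elongation and termination factors (12 of 12 in the table) had a median RU486 difference of -0.46 in knockdown flies and 0.49 in control flies, and a list of 29 initiation factor genes had -0.48 and 0.46. On the deposited scale, all genes of both lists were lower with RU486 in knockdown flies and higher in control flies. The same held for 83.7% of all genes. By the fold thresholds, eEF1delta, eIF1A and eIF4B were lower in knockdown flies, where 6.99% of all genes were, and eRF3, eIF3l and eIF6 were higher in control flies, where 6.54% were. None of these passed once the all-gene medians were subtracted. The list does not hold every initiation factor gene of the table. Outside it, and named after its values were seen, eIF2D had -0.66 in knockdown flies and also passed the lower threshold. Named in the same way, eIF4E5 had 0.028 in knockdown flies and eIF3g2 -0.00057 in control flies. Both eIF4E5 and eIF3g2 share all 4 values with another gene and have none farther than 0.1 from 0. The isoforms of elongation factor 1 alpha, which brings aminoacyl-tRNA to the ribosome, differed little in these differences, with -0.44 and 0.48 for eEF1alpha1 and -0.37 and 0.45 for eEF1alpha2. Rack1, a scaffold on the small subunit, had -0.47 and 0.53.

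Genes for ribosome assembly and ribosomal RNA synthesis (31 of 35 names) had medians of -0.37 and 0.40, nearer to those of all genes. After subtracting the all-gene medians they had -0.0086 and 0.056 (0.046 in the knockdown genotype against genes with information, a change of sign), where the ribosomal protein genes had -0.11 and 0.14. Their scaled median absolute deviation in knockdown flies was 0.13, against 0.021 for the main ribosomal protein genes. Counts past the thresholds were 0 lower in knockdown flies and 2 higher in control flies (nop5 and Nop17l), a share of 6.45% against 6.54% of all genes, and 0 in both on the all-gene scale.

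Compared with other large complexes, the main cytosolic ribosomal protein genes had the narrower spread by scaled median absolute deviation. The 72 mitochondrial ribosomal protein genes had a median RU486 difference of -0.58 in knockdown flies and 0.23 in control flies, with scaled median absolute deviations of 0.16 and 0.14, against 0.021 and 0.042 for the main cytosolic genes. Of the mitochondrial genes, 29 of 72 were lower in knockdown flies by fold change at or below 0.65, and of the main cytosolic genes none, against 6.99% of all genes. With the all-gene medians subtracted, 1 of the 72 (mRpS7) passed, against 0.438% of all genes. The 37 proteasome subunit genes had -0.41 and 0.48, with deviations of 0.069 and 0.061. The main cytosolic set leaves out copies and relatives, while the other sets were taken by name alone. Over all 87 members, RpS5b included, the standard deviation in knockdown flies was 0.21, wider than the mitochondrial 0.16 and the proteasome 0.16. In control flies it was 0.093, narrower than 0.15 and 0.16. Relative to all genes the cytosolic ribosomal genes were higher with RU486 in control flies (0.14) and the mitochondrial ones lower (-0.12), while both were lower in knockdown flies. These differences between gene sets were not tested, since genes of 1 library are not replicates.

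**Figure D5:**
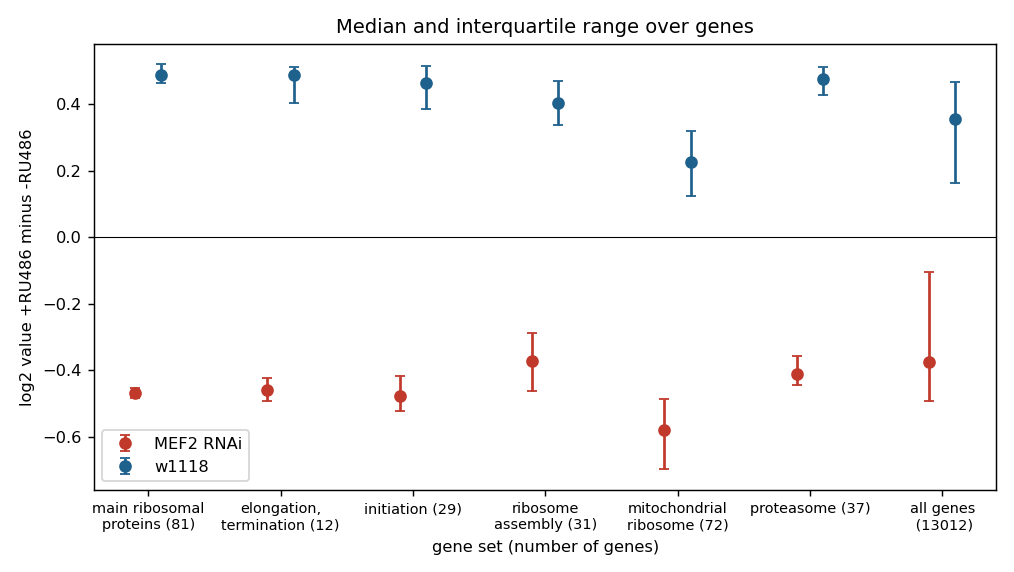
Median (points) and interquartile range (bars) over genes of the log2 value +RU486 minus -RU486 (vertical axis) for 7 gene sets (horizontal axis, number of genes in parentheses), in knockdown flies (red) and control flies (blue). The bars of the main ribosomal protein genes, from -0.48 to -0.46 and from 0.47 to 0.52, are the shortest of the 7 sets in both genotypes.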

How the data were processed

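RNA-seq libraries, 1 per condition, were made from 8 thoraces each with the TruSeq stranded total RNA kit per the labels. One table of log2 values was deposited for 13012 genes. It is centred gene by gene, as each gene's values add up to 0 (largest departure 7.0e-15). The aligner, counter, build and normalization are not given in the sources used here, and depth per library is unknown, so no interval is given. Each column was matched to its sample by title. Differences of log2 values were taken, and folds are 2 to their power. Counts use the study's thresholds of 0.65 and 1.5, without its further condition on control flies. No test was run. The comparison within a gene pair, the values of its main gene and an alternative that left the pair out are not reported here.

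The members, lists, copy pairs and alternatives were chosen with earlier results of these data known. Apart from that main gene, named are the copies and their partners, the 3 lowest and 3 highest other members per genotype, members outside the range of the main genes, Mef2 and list genes. Genes without information are those sharing all 4 values with another gene or having none farther than 0.1 from 0. Of the members, 85 passed this filter. Alternatives were other scales, references, thresholds, summaries and pairs. Positions are from Ensembl release 115 (BDGP6), in which all 87 members were placed, 1 by synonym. Of the members, 6 overlap another gene on their strand. Python 3.11.15, numpy 2.4.6, pandas 2.3.3 and matplotlib 3.10.9 were used, and the calls were tested on simulated data.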

Additional observations from a re-analysis of the deposited data

Results flagged for a closer look

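The median RU486 difference of the main ribosomal protein genes had opposite signs in the 2 genotypes, -0.47 in knockdown flies and 0.49 in control flies, a difference of -0.96 between the medians. The median of all genes differed in the same direction, -0.38 against 0.36, and on the all-gene scale the values were -0.11 and 0.14. The difference between genotypes was not tested, since each condition has 1 library, and a common shift of a library cannot be told apart from a change of most genes.

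Relative to their partners, 3 second copies (RpS19b, RpS10a and RpS15Ab) had values of the opposite order, with medians of 0.30 in knockdown flies and -0.30 in control flies, a difference of 0.60. Subtracting a common shift from each library leaves this difference unchanged, and it was not tested. RpS19b and RpS10a lay nearer to 0 than their partners in every library. Where the partners follow the shift of the whole table, that shift remains in the difference. RpS15Ab alone of the 3 copies shares its 4 values with no other gene. At -0.16 and -0.24 it was lower against its partner with RU486 in both genotypes.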

How the results depend on the processing

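Of 41 values under 9 alternatives, 26 stayed within 0.1 on the log2 scale, or within 1.5 times for counts. Another 7 moved by more, 7 counts became smaller beyond that limit, and 1 changed sign. Some of the 26 could not change. Subtracting a constant from each library leaves a difference between copy and partner as it was, and leaving out genes without information removes no main gene. Subtracting the all-gene medians gave -0.11 in knockdown flies and 0.14 in control flies for the main genes, and 0 members lower in knockdown flies and 0 higher in control flies. Using genes with information instead, chosen after seeing the data, gave -0.051 and 0.092, and again 0 and 0. Leaving out the 6 members that overlap another gene on their strand, also chosen after seeing the data, kept each value it was run for within these limits. The cause of the lost counts was not tested. Measured against the mean of the other 3 libraries, knockdown flies with RU486 had -0.27 for the main genes, 0 lower members and 0.14 for the 3 second copies against their partners. At fold thresholds of 0.5 and 2, 0 members were lower in knockdown flies and 0 higher in control flies, and RpS5b stayed higher. The second copies' median in knockdown flies, 0.30, was 0.13 with the assembly relatives, and it reversed to -0.16 without genes lacking information, where 1 pair is left. No paired analysis was possible because there is a single library in every condition, with no test. No pseudocount or filter on low values was added here. Whether the deposited values carry one is not given in the sources used here.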

Other observations

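The genes whose 4 values lay nearest to those of RpS5b, by the Euclidean distance over the 4 libraries and chosen after their values were seen, were Cyp6a19 (distance 0.054), gwl (0.094), CBP (0.15), fs(1)Ya (0.17), gnu (0.17) and nos (0.18). The gene gwl encodes the Greatwall kinase of cell division, and fs(1)Ya and gnu act in the egg and early embryo of flies. Cyp6a19, a cytochrome P450 gene, had values of 0.92 and -0.40 in induced and uninduced knockdown flies and -0.12 and -0.39 in control flies, and it is not on the female germline list.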
